A study of Homo sapiens with 6 samples.

Results

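The clustered protocadherins were examined in SH-SY5Y cells, a human neuroblastoma line, after knockdown of the RNA-binding protein PSF. They were the 58 rows, of 21301 in the deposited table, whose gene symbol began with PCDHA, with PCDHB and a digit, or with PCDHGA, PCDHGB or PCDHGC and a digit. The alpha cluster gave 16 rows, namely PCDHA1 to PCDHA13, the C-type genes PCDHAC1 and PCDHAC2, and PCDHACT, a row for the constant region. The beta cluster gave 19 rows, with the pseudogenes PCDHB17P, PCDHB18P and PCDHB19P among them. The gamma cluster gave 23 rows, made up of 12 gamma A genes, 8 gamma B genes with the pseudogene PCDHGB8P, and the 3 C-type genes PCDHGC3, PCDHGC4 and PCDHGC5. All lie on the plus strand of chromosome 5 in RefSeq GRCh38.p14, with alpha at chr5:140786140-141012347, beta at chr5:141051374-141249365 and gamma at chr5:141330514-141512975. The study compared 3 libraries treated with a control siRNA (siControl) and 3 treated with an siRNA against PSF (siPSF), harvested after 72 h. The siPSF dose was 10 nM, and all cells were of the same line and were otherwise unmodified as far as the labels state. The methods name a single siRNA for these libraries, so effects of its sequence on other RNAs and of less PSF cannot be told apart. Libraries are named here by group and replicate number, and the study describes them as biological triplicates.

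Clustered protocadherins are cell-surface adhesion proteins that bind the same isoform on a neighbouring cell. In the alpha and gamma clusters, each variable exon has its own promoter, codes for the extracellular part of the protein and is spliced to constant exons that code for a common cytoplasmic end. The beta genes have one exon each and no constant exons. Neurons choose a few of these promoters each, which helps a neuron to tell its own branches from those of others. The choice depends on CTCF and cohesin, which loop promoters to distant enhancers, and on DNA methylation, whereas the C-type genes are more widely used.

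The constant exons are printed because they decide what a count of an alpha or gamma gene can mean. In the GENCODE annotation of GRCh38, the MANE transcripts (a reference transcript for each gene) of all 15 annotated alpha genes held the same 3 last exons, 2869 bases in all. Those of all 22 annotated gamma genes held another 3, 2177 bases in all. This is 48.7 to 53.7% of an alpha transcript and 44.8 to 45.9% of a gamma transcript, and 0 bases were shared among the 16 annotated beta genes. A read from a constant exon cannot be given to 1 member by its sequence alone. The first 2 shared exons of each cluster follow, 5′ to 3′. The third, of 2721 bases in alpha and 2029 bases in gamma, is not printed.
alpha shared exon 1 (chr5:140978949-140979007, plus strand, 59 bases): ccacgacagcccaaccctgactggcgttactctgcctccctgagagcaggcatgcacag
gamma shared exon 1 (chr5:141494807-141494865, plus strand, 59 bases): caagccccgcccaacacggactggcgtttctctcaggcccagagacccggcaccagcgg
alpha shared exon 2 (chr5:140982475-140982563, plus strand, 89 bases): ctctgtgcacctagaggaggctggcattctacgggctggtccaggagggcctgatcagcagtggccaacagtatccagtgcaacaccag
gamma shared exon 2 (chr5:141505393-141505481, plus strand, 89 bases): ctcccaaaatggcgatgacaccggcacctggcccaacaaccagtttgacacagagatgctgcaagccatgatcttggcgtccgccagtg
Position by position, the first shared exons of alpha and gamma were identical at 39 of 59 bases and the second at 29 of 89 bases, so the sequences of the constant exons differed between the clusters.

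The promoters are printed because each variable exon is started by its own. RefSeq promoter sequences of GRCh38.p14, from 250 bases before to 50 after the start, were found for 47 of the 58 members: 13 alpha, 14 beta and 20 gamma. Each was searched for CGCT, the core of the element known from these promoters, on both strands. It was present in 46 of 47, and in 71.9% of the 27305 genes with a promoter sequence, so its presence alone sets these genes little apart. On the gene's own strand and starting 100 to 30 bases before the start, a window chosen after the sequences were seen, CGCT was found in 43 of 47 members and in 25% of all genes. The sequences below are from some of the members named in this report, and PCDHGB7 is not among them. In these sequences, CGCT is in capitals, and 22 bases before and 10 after it are in lower case. CGCT is short, so a marked CGCT need not be part of the known element, and which members have that element was not tested.
PCDHA8 (chr5:140841124-140841159, plus strand, CGCT from 41 bases before the start): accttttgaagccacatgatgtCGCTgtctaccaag
PCDHA12 (chr5:140875238-140875273, plus strand, CGCT from 48 bases before the start): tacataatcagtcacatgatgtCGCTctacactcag
PCDHB10 (chr5:141192293-141192328, plus strand, CGCT from 38 bases before the start): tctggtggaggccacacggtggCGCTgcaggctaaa
PCDHB14 (chr5:141223257-141223292, plus strand, CGCT from 64 bases before the start): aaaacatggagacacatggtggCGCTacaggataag
PCDHGA5 (chr5:141364101-141364136, plus strand, CGCT from 39 bases before the start): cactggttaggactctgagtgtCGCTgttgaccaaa
PCDHGA6 (chr5:141373829-141373864, plus strand, CGCT from 40 bases before the start): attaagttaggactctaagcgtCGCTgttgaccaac
PCDHGA10 (chr5:141412925-141412960, plus strand, CGCT from 40 bases before the start): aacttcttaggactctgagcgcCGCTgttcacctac
PCDHGA7 (chr5:141382643-141382678, plus strand, CGCT from 77 bases before the start): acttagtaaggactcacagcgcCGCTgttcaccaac
PCDHGB3 (chr5:141370156-141370191, plus strand, CGCT from 64 bases before the start): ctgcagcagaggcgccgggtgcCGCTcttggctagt
PCDHGB4 (chr5:141387611-141387646, plus strand, CGCT from 65 bases before the start): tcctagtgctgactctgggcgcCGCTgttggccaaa
PCDHGB6 (chr5:141407918-141407953, plus strand, CGCT from 81 bases before the start): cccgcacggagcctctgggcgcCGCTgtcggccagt
PCDHGC3 (chr5:141475874-141475909, plus strand, CGCT from 70 bases before the start): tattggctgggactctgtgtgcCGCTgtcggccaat
PCDHGC4 (chr5:141484946-141484981, plus strand, CGCT from 62 bases before the start): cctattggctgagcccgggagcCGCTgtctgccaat
The bases around CGCT differed by cluster. With flanking bases chosen after the sequences were seen and both strands searched, TGTCGCT was present in 10 of 13 alpha promoters, 1 of 14 beta and 3 of 20 gamma promoters, and in 2.15% of all genes. TGGCGCT was present in 13 of 14 beta promoters, 0 of 13 alpha and 3 of 20 gamma promoters, and in 4.92% of all genes. GNCGCTGT was present in 17 of 20 gamma promoters, 5 of 13 alpha and 1 of 14 beta promoters, and in 5.28% of all genes. Some promoters contain more than 1 of these overlapping patterns. The window of PCDHGB4 was identical to that of PCDHGB5 at 36 of 36 bases, and PCDHGA5 and PCDHGA10 matched at 28 of 36. In the window of PCDHGB7, not printed, CGCT lies 54 bases before the start and is followed by GA, not by the GT of GNCGCTGT. It matched another window of PCDHGB6, also not printed, at 35 of 36 bases. A core pattern of the CTCF motif was found in 1 of 47 members (a beta gene) and in 2.97% of all genes, and TATAA in 17 of 47 and in 24.2%. The counts are over the whole promoter sequences, of which the printed windows are a part. In the beta gene with the CTCF pattern, PCDHB9, the match overlapped the core of the known element, so these searches are not independent. The CTCF pattern is a strict string, and its low count does not show that few of these promoters have a CTCF site. Whether they have more such sites than other genes was not tested. Neither a match nor its absence is a measure of binding.

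The 6 libraries held between 101540520 and 132420931 counts. SFPQ, the gene that codes for PSF, measured 377 ± 23.1 CPM (counts scaled to library size by TMM, SD, n = 3) in siControl and 189 ± 22.3 CPM in siPSF. This is a log2 fold change of -0.99 (standard error, SE, 0.10; edgeR adjusted p = 9.5e-05). All 10 markers listed for the noradrenergic neuroblastoma state were in the table. Their summed level was 4856 to 5265 CPM in siControl and 4331 to 4732 CPM in siPSF, although TH, the enzyme that starts catecholamine synthesis, was at only 0.74 CPM in siControl. Of these 10, DBH (log2 fold change -0.68), TH (-1.20) and ELAVL4 (-0.46) were called lower and GATA3 (0.30) higher, and 6 were not called. Of 8 markers of the mesenchymal state or fibroblasts, 6 were in the table, with a summed level of 88.3 to 93.5 CPM in siControl and 60.7 to 68.0 CPM in siPSF, while PRRX1 and TWIST2, which define that state, were not among the rows. FN1 (fibronectin) made up 78.7 CPM of that sum in siControl and 52.0 CPM in siPSF. FN1 and COL3A1 were called lower and the other 4 were not called, with COL1A1 at 0.55, LUM at 0.57, SNAI2 at 0.39 and COL1A2 at -0.12 on the log2 scale, and the median of the 6 was 0.14. Glial markers (2 of 6 in the table) summed to 0.824 to 2.37 CPM, and blood markers (1 of 4) to 2.14 to 3.32 CPM, over all libraries. The part of these shifts in the results below was not tested. In such bulk RNA, fewer cells that express a gene and less of its RNA per cell cannot be told apart.

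The level of the members is compared here as FPKM, which divides counts by exon length and depth. The highest member was PCDHGC3, at 20.4 ± 0.335 FPKM (SD, n = 3) in siControl, followed by PCDHGB7 at 18 ± 1.4 and PCDHGA7 at 7.59 ± 0.597 FPKM. PCDHGC4 at 5.39 ± 0.157 and PCDHAC2 at 4.82 ± 1.15 FPKM came next, and did not differ beyond their spread. The highest beta genes were PCDHB10 at 3.60 ± 0.308 and PCDHB14 at 2.79 ± 0.167 FPKM. In all, 13 of 58 members had a mean of 1 FPKM or more in siControl: 2 of 16 alpha rows, 7 of 19 beta and 4 of 23 gamma. The lowest was PCDHB1, at 0.00794 FPKM, with as few as 3 counts in a library. Among the alpha genes, PCDHA12 at 0.883 and PCDHA8 at 0.735 FPKM led the 13 numbered members, which reached from 0.041 FPKM.

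**Figure D1:**
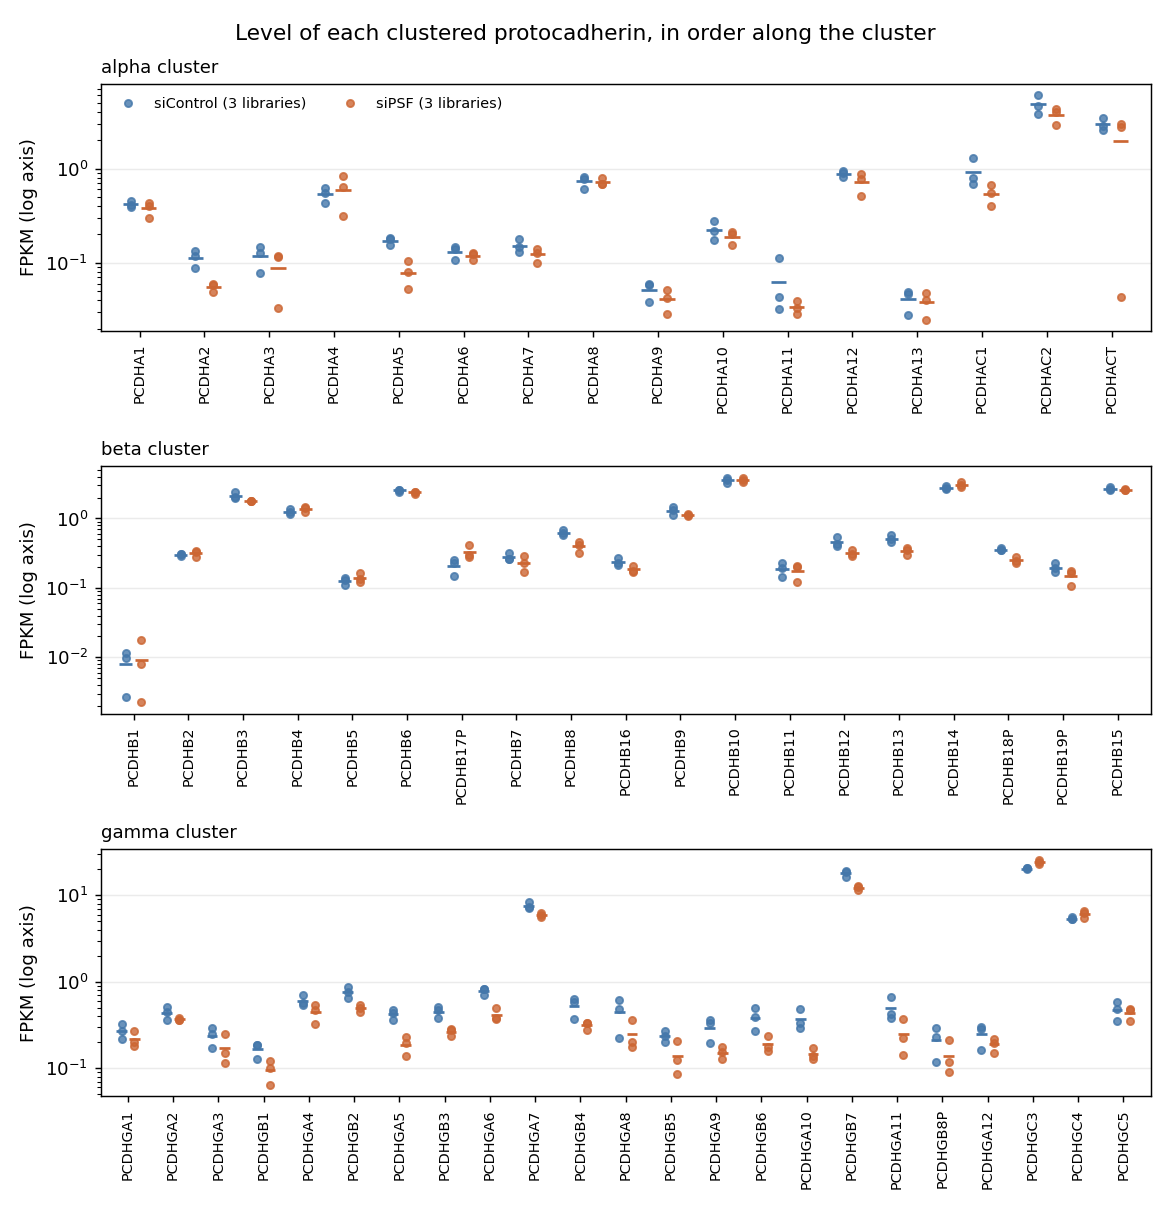
Level of all 58 members in FPKM on a log axis, in order along the alpha, beta and gamma clusters, with 1 point per library (blue siControl, orange siPSF) and a bar at each group's mean. PCDHGC3, PCDHGB7, PCDHGA7, PCDHGC4 and PCDHAC2 stand highest, and 1 siPSF library lies far below the other 5 at PCDHACT.

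After PSF knockdown, 8 of the 20 gamma A and B genes were lower and the C-type gene PCDHGC3 was higher, while no alpha or beta member passed the test. All 58 members passed the filter on low counts and went through edgeR's quasi-likelihood test. Adjusted p values are Benjamini-Hochberg values over the 19694 genes in that fit, and a member was called when its value was under 0.05. Of them, 8 were called lower, against 8.27% of all genes tested, and 1 higher, against 6.65%. The 8 lower members were 4 of 12 gamma A and 4 of 8 gamma B genes, and the higher member was 1 of 3 gamma C genes. In CPM, 17 members had all siPSF libraries below all siControl libraries, against 17.8% of all genes, and 4 had them all above, against 16.7%. Of the 17, 10 were gamma, 5 beta and 2 alpha rows. The median log2 fold change was -0.66 in gamma, -0.25 in alpha and -0.03 in beta, beside 0.01 over all genes tested.

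**Figure D2:**
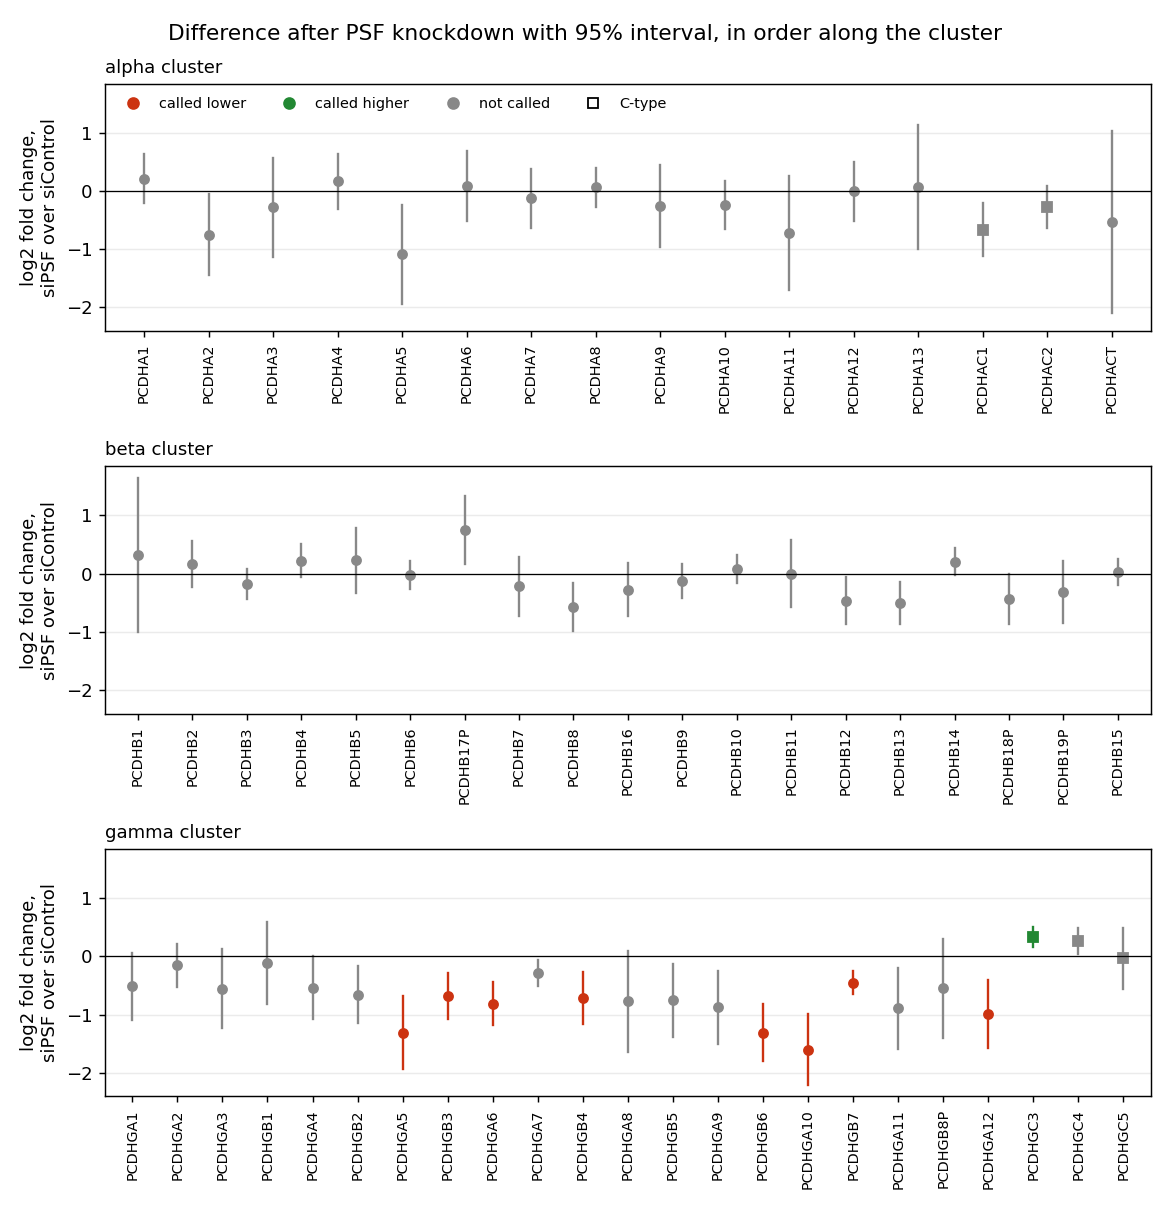
Log2 fold change of siPSF over siControl for each member, with its 95% interval, in order along the clusters; red is called lower, green called higher, grey not called, and squares are C-type genes. The 8 red points are all gamma A or B genes, and the only green point is PCDHGC3.

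The gamma A genes code for the first family of gamma variable domains. All 12 had a log2 fold change below 0, with a median of -0.79 and a range from -1.60 to -0.16, and 5 of 12 had no overlap between the groups. PCDHGA10 (gene ID 56106) fell furthest: it was at 1.41, 1.85 and 1.22 CPM in siControl replicates 1, 2 and 3, and at 0.396, 0.379 and 0.710 CPM in siPSF. All 3 siPSF libraries lay below the lowest siControl library. The fitted log2 fold change of PCDHGA10 was -1.60 (SE 0.28, 95% interval -2.21 to -0.99; adjusted p = 0.0029). PCDHGA5 (gene ID 56110) was at 2.19, 1.32 and 2.1 CPM in siControl and at 0.867, 0.938 and 0.446 CPM in siPSF. The groups did not overlap, and siPSF replicate 3 was the lowest. On the log2 scale PCDHGA5 changed by -1.31 (SE 0.29, adjusted p = 0.00996), and its adjusted p was 0.061 without siControl replicate 3. PCDHGA6 (gene ID 56109), the gamma A gene next in FPKM after PCDHGA7, was at 3.99, 4.08 and 3.36 CPM in siControl and at 2.58, 1.88 and 2.04 CPM in siPSF. Here too every siPSF library was below every siControl library. This came to -0.81 on the log2 scale (SE 0.17, adjusted p = 0.00779). PCDHGA12 (gene ID 26025), the last gamma A gene, was at 0.855, 1.3 and 1.49 CPM in siControl and at 0.463, 0.654 and 0.730 CPM in siPSF. The groups were close, with siControl replicate 1 just above the highest siPSF library. From the counts, PCDHGA12 changed by -0.99 on the log2 scale (SE 0.27, adjusted p = 0.0282), but on FPKM the log2 ratio of the means was only -0.40, and the call was lost without siControl replicate 2, without siControl replicate 3 and without siPSF replicate 1 (adjusted p up to 0.118).

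PCDHGA7 (gene ID 56108) was the most abundant gamma A gene and was not called. Its level was 42.3, 37.2 and 35.9 CPM in siControl and 28.8, 31.9 and 34.2 CPM in siPSF. The groups did not overlap, but the gap between them was narrow. With a log2 fold change of -0.28 (95% interval -0.50 to -0.06), the adjusted p was 0.0813, and 0.0423 without siPSF replicate 3. PCDHGA1, the first gene of the cluster, was at -0.51 on the log2 scale (adjusted p = 0.215). The other 6 gamma A genes were not called, with values between -0.89 for PCDHGA11 and -0.16 for PCDHGA2.

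The gamma B genes, the second family of gamma variable domains, are interspersed among the gamma A genes. All 8 were below 0, with a median of -0.67, and 5 of 8 had no overlap. PCDHGB7 (gene ID 56099), the most abundant gamma A or B gene, was at 83.8, 98.7 and 90.2 CPM in siControl and at 62.4, 67.6 and 69.7 CPM in siPSF. The lowest siControl library exceeded the highest siPSF library by more than the range within siPSF. PCDHGB7 changed by -0.45 on the log2 scale (SE 0.09, 95% interval -0.64 to -0.26; adjusted p = 0.00568). PCDHGB6 (gene ID 56100) was at 1.31, 1.64 and 1.28 CPM in siControl and at 0.547, 0.493 and 0.669 CPM in siPSF. Its siPSF libraries were all well below the siControl libraries. This gave a log2 fold change of -1.31 (SE 0.22, adjusted p = 0.00236). PCDHGB3 (gene ID 56102) was at 2.30, 1.96 and 2.50 CPM in siControl and at 1.22, 1.52 and 1.47 CPM in siPSF. The groups did not overlap. PCDHGB3 changed by -0.68 on the log2 scale (adjusted p = 0.0262), and the call was lost without siControl replicate 1, without siControl replicate 3 or without siPSF replicate 1 (adjusted p up to 0.103). PCDHGB4 (gene ID 8641) was at 1.90, 2.98 and 3.1 CPM in siControl and at 1.62, 1.46 and 1.77 CPM in siPSF. Only siControl replicate 1 came near the siPSF libraries. PCDHGB4 changed by -0.72 on the log2 scale (adjusted p = 0.035), and it was called in 5 of the 14 settings tried, with an adjusted p of 0.142 without siControl replicate 2. The 4 gamma B genes that were not called ran from -0.76 for PCDHGB5 to -0.12 for PCDHGB1, the first of them, with PCDHGB2 at -0.66 (adjusted p = 0.0689) and the pseudogene PCDHGB8P at -0.54.

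The C-type gamma genes lie at the end of the cluster, next to the constant exons, and 1 of the 3 rose. PCDHGC3 (gene ID 5098) was at 101, 104 and 95.3 CPM in siControl and at 123, 133 and 123 CPM in siPSF. All siPSF libraries were above all siControl libraries. PCDHGC3 changed by 0.33 on the log2 scale (SE 0.08, 95% interval 0.16 to 0.51). Its adjusted p was 0.0157, and 0.066 without siPSF replicate 2. PCDHGC4 (gene ID 56098) was at 26.4, 26.3 and 26.4 CPM in siControl and at 27.9, 34.3 and 32.7 CPM in siPSF. Its groups did not overlap, with siPSF replicate 1 close to the siControl libraries. Its value of 0.26 on the log2 scale (95% interval 0.05 to 0.48) was not called (adjusted p = 0.0977). PCDHGC5, at 1.35, 2.40 and 2.78 CPM in siControl and 1.87, 2.1 and 2.4 CPM in siPSF, overlapped and gave -0.04 (95% interval -0.56 to 0.49).

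In CPM, the summed gamma level overlapped between the groups, while the sums of its A and B genes and of its C-type genes did not. Over the 23 gamma rows, the summed CPM was 286, 300 and 286 in siControl and 265, 288 and 280 in siPSF, which overlapped, for a log2 ratio of the means of -0.07. In FPKM the gamma sums were 57.6, 59.8 and 60.2 in siControl and 52.0, 55.3 and 53.5 in siPSF, which did not overlap (log2 ratio -0.14). The ratio of the beta sums also lay lower in FPKM than in CPM, at -0.08 against -0.003. This shift between the scales was thus not confined to gamma, and its cause was not tested. The gamma A and B genes summed to 157, 167 and 162 CPM in siControl and to 112, 119 and 122 CPM in siPSF, a log2 ratio of -0.46 without overlap. The gamma C genes summed to 129, 133 and 124 CPM in siControl and to 152, 170 and 158 CPM in siPSF, a log2 ratio of 0.31, also without overlap. As a share of gamma counts, the C-type genes took 44.3 ± 0.798% in siControl and 57.6 ± 1.16% in siPSF (SD, n = 3). On FPKM the shares were 44.5% and 57.6%. PCDHGB7, PCDHGA7, PCDHGC3 and PCDHGC4 alone held 88.0% of gamma counts in siControl and 92.2% in siPSF, so the sums rest on these 4 genes, of which PCDHGB7 was called lower and PCDHGC3 higher. The other 18 gamma A and B genes together took 11.2 ± 1.0% and 7.04 ± 0.808%. Since all gamma genes but the pseudogene share their constant exons, the members of the cluster are not independent measurements, and a read counted for one may have come from another.

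**Figure D3:**
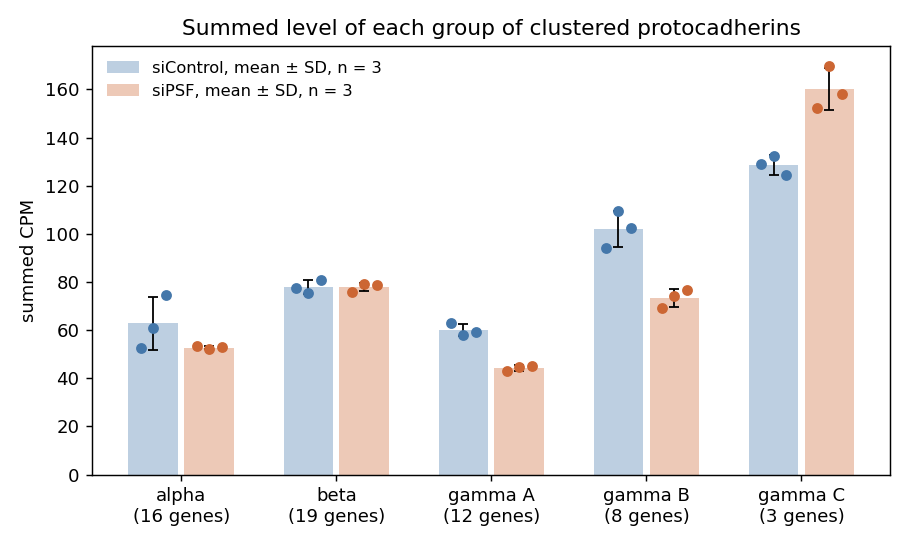
Summed CPM of the alpha, beta, gamma A, gamma B and gamma C rows in each library (points), with the mean and SD of 3 libraries per group (bars and whiskers). The siPSF points lie below the siControl points for gamma A and gamma B, above them for gamma C, and among them for alpha and beta.

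In the alpha cluster, 0 of 16 rows were called. Of the 16, 3 had an unadjusted p under 0.05, as had 5861 of the 19694 genes tested. DESeq2's Wald test called 2, PCDHA5 and PCDHAC1, both lower, and over all genes it called 2058 of 21301 lower. In limma's fits on FPKM, PCDHA5 was called lower with 0.5 added, and PCDHA5 and PCDHA2 with 0.1 added. PCDHAC1 (gene ID 56135), a C-type gene, came nearest, at 3.99, 4.59 and 5.86 CPM in siControl and 2.78, 4.02 and 2.32 CPM in siPSF. Its groups overlapped only through siPSF replicate 2, the library in which the PCDHACT row held 16 counts, as described below. PCDHAC1 had a log2 fold change of -0.66 (95% interval -1.12 to -0.21, adjusted p = 0.0517). It was called without siControl replicate 1 and without siPSF replicate 2 (adjusted p = 0.0097 in the latter fit). In the other fits without 1 library it was not called, with an adjusted p up to 0.20. PCDHAC2 (gene ID 56134), which held 46.6% of alpha counts in siControl, was at 23.5, 28.5 and 36.2 CPM in siControl and 25.5, 28.3 and 19 CPM in siPSF. The groups overlapped, with a log2 fold change of -0.28 (95% interval -0.64 to 0.08). Of the 5 C-type genes of alpha and gamma, PCDHAC1, PCDHAC2 and PCDHGC5 had values below 0 and PCDHGC3 and PCDHGC4 above 0, and PCDHGC3 was the 1 that passed the test. Whether those of alpha and gamma differ was not tested.

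Among the 13 numbered alpha genes the median was -0.12, and 8 were below 0 and 5 above. PCDHA12 (95% interval -0.51 to 0.49) and PCDHA8 (95% interval -0.27 to 0.39), the most abundant, had values of -0.01 and 0.06. PCDHA1, the first, was at 0.21 and PCDHA13, the last, at 0.06, and both had adjusted p of 0.50 or more. PCDHA5 had the lowest value, -1.09 (adjusted p = 0.0813), and no overlap, as had PCDHA2 at -0.75 (adjusted p = 0.142). Both had means under 1 CPM, and both were singled out after their values were seen.

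PCDHACT, the row for the alpha constant region, differed in 1 library. It held 968, 1180 and 1310 counts in siControl and 1066, 16 and 961 counts in siPSF. The low value was siPSF replicate 2. The summed alpha CPM with this row was 53.2, 52.1 and 52.9 in siPSF, and without it 44.3, 51.9 and 43.1, so replicate 2 stood above the other siPSF libraries in the rest of the cluster and level with them in the whole sum. The cause of this was not tested. In siControl the summed alpha CPM was 52.6, 61.1 and 74.6, which overlapped siPSF, and the log2 ratio of the means was -0.25 with PCDHACT and -0.21 without it. With PCDHACT, the ratio was -0.11 without siControl replicate 3 and -0.36 without siControl replicate 1. In FPKM the alpha sums did not overlap, at 10.4, 11.8 and 14.7 in siControl and 10.0, 8.32 and 9.83 in siPSF, with a log2 ratio of -0.39, but without PCDHACT they overlapped, with a ratio of -0.33.

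In the beta cluster, whose genes share no exon, 0 of 19 rows were called. Of the 19, 5 had an unadjusted p under 0.05, beside 5861 of the 19694 genes tested. DESeq2's Wald test called 2, PCDHB8 and PCDHB13, both lower, beside 2058 of 21301 genes. In limma's fits on FPKM, PCDHB8 and PCDHB18P were called lower with 0.5 added and 0 with 0.1 added. Values above and below 0 were about even, at 9 and 10, and the summed CPM was 77.6, 75.5 and 81.0 in siControl and 75.8, 79.0 and 78.8 in siPSF. PCDHB10 (gene ID 56126) was at 13, 11.8 and 13.4 CPM in siControl and 12.4, 13.4 and 14.5 CPM in siPSF, with a log2 fold change of 0.08 (95% interval -0.16 to 0.32). PCDHB14 (gene ID 56122) was at 11.4, 11.9 and 12.3 CPM in siControl and 13.3, 14.9 and 12.9 CPM in siPSF. The groups of PCDHB10 overlapped and those of PCDHB14 did not, but the log2 fold change of PCDHB14 was small, at 0.21 (95% interval -0.02 to 0.44, adjusted p = 0.215). PCDHB1, the first, was at 0.32 (SE 0.61) on a few counts, and PCDHB15, the last, at 0.02 (SE 0.10). The widest values were -0.57 for PCDHB8 (adjusted p = 0.0628) and 0.75 for the pseudogene PCDHB17P (adjusted p = 0.0819), both without overlap and both picked after their values were seen.

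By position, the gamma A and B genes called in the main fit ran from PCDHGA5 in place 7 to PCDHGA12 in place 20. None of the 6 before PCDHGA5 was called there, although all 6 had values below 0. This boundary depended on the setting. PCDHGB2, in place 6, was called in 4 other settings and PCDHGA3, in place 3, in 1. Among the later genes, PCDHGB4 was called in only 5 settings, main fit included, and the uncalled PCDHGA9 and PCDHGA11 in 2 each. The counts that follow are from the main fit. Of the first 10, from PCDHGA1 to PCDHGA7, 3 were called lower, with a median log2 fold change of -0.55, and of the last 10, from PCDHGB4 to PCDHGA12, 5 were, with a median of -0.82. Spearman's correlation of position with log2 fold change was -0.53 over these 20 genes. It was -0.47 over the 19 beta rows and -0.20 over 15 alpha genes without PCDHACT. These are descriptions across genes that share libraries and, in alpha and gamma, exons. The next gene after PCDHGA12 is PCDHGC3, where the values changed sign. With the level in FPKM the correlation was 0.08 over the gamma A and B genes.

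The exon length behind each FPKM value was also read from the files, because the FPKM of a gene depends on it. It is the ratio of count to FPKM, scaled in each library on 1683 genes with a single annotated transcript, of which 97.0% came within 5% of the annotated length in every library. Beta lengths were nearly constant: the longest over the shortest of the 6 libraries had a median of 1.01 over the 19 rows, and PCDHB10 gave 3296 bases on average in siPSF for an annotated transcript of 3295. In alpha that ratio had a median of 1.33 and reached 1.94, and in gamma a median of 1.28 and a maximum of 1.83. PCDHGB7, PCDHGA7, PCDHGC3 and PCDHGC4 stayed near the length of the full transcript with constant exons, for example 4715, 4774 and 4660 bases in siControl and 4773, 4773 and 4772 bases in siPSF for PCDHGB7, whose MANE transcript has 4775. PCDHGA12 gave 4802, 4176 and 4783 bases in siControl and 2741, 2956 and 2915 bases in siPSF. Its annotated transcript with constant exons has 4854 bases and its single-exon transcript 2634, so the siPSF values lay nearer the shorter form and the siControl values nearer the longer. PCDHGB1 ran the other way, from 2446, 2439 and 2438 bases in siControl to 2775, 4445 and 4172 bases in siPSF. Such a length weighs annotated transcripts and was not tested. Non-overlapping lengths were found in 3 gamma members that were shorter in siPSF (PCDHGA1, PCDHGB4 and PCDHGA12) and 2 that were longer (PCDHGB1 and PCDHGC4), and in 1 alpha and 2 beta members, by small amounts. The share of all genes with such lengths was not counted, so these numbers do not set the members apart from other genes.

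**Figure D4:**
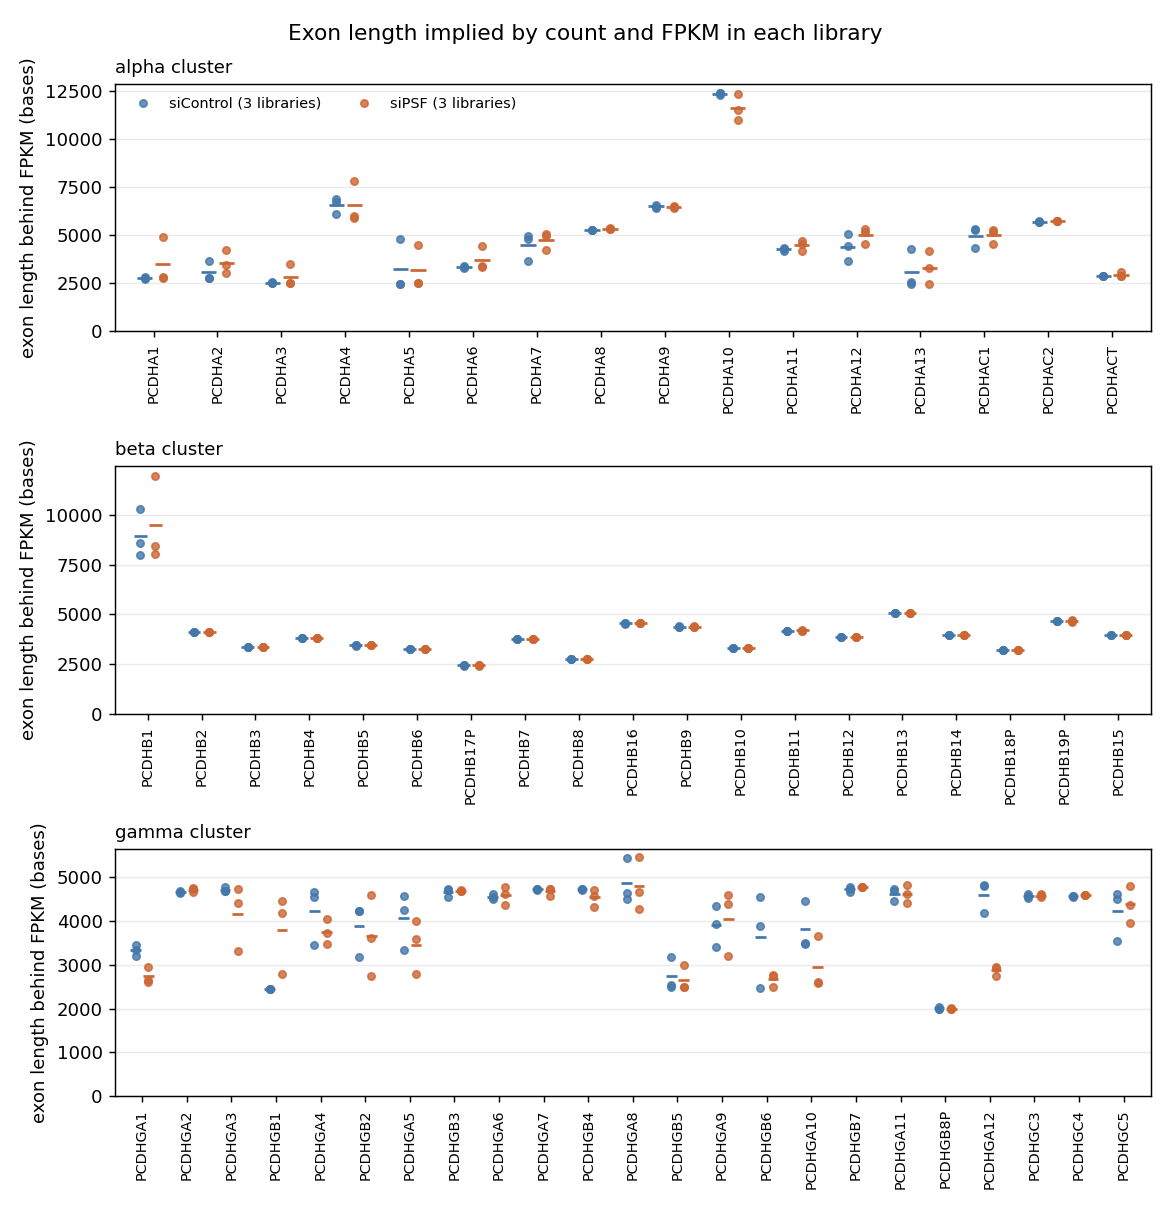
Exon length in bases that count and FPKM imply for each member and library, in order along the clusters, with bars at the group means (blue siControl, orange siPSF; each axis starts at 0). Beta points lie on top of each other except at PCDHB1, alpha and gamma points spread, and PCDHGA12 is shorter in every siPSF library.

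Of 44 listed genes that act on the clusters or on their proteins, 4 were called lower and 1 higher, at a median log2 fold change of -0.06. With 8.27% of all genes tested called lower and 6.65% higher, these counts are near or below the background. The list's total of 5 calls dropped to 1 without siControl replicate 2 and to 1 without siControl replicate 3. Calls over all genes dropped too, from 1628 lower and 1310 higher to 928 and 572, and to 1022 and 732. The single genes that follow are therefore values of the fit over all 6 libraries. NIPBL, which loads cohesin, was at 56.2, 59.4 and 67.4 CPM in siControl and 49.2, 48.9 and 49.1 CPM in siPSF, without overlap. NIPBL changed by -0.32 on the log2 scale (adjusted p = 0.0356). SMCHD1, a silencing factor that acts on the protocadherin clusters, was at 70.8, 74.9 and 90.3 CPM in siControl and 61.2, 56.8 and 62.7 CPM in siPSF, also without overlap, and had a log2 fold change of -0.38 (adjusted p = 0.0238). CTCF, at 103 ± 6.65 and 104 ± 1.22 CPM, had a value of 0.01 (95% interval -0.17 to 0.18), and the cohesin subunit RAD21 had 0.05 (95% interval -0.20 to 0.30). On the cytoplasmic side, the kinase PTK2B, which binds protocadherin tails, was at -0.61 (adjusted p = 0.00852), and in the WAVE complex, a binding partner that drives actin branching, WASF1 was at -0.33 (adjusted p = 0.0366) and BRK1 at 0.29 (adjusted p = 0.0264). The 6 genes listed for shedding, proteases that cut protocadherins at the membrane, lay between -0.07 and 0.02, and 0 were called.

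Of 17 other genes around and between the clusters, 16 were tested and 0 were called by edgeR. An unadjusted p under 0.05 was found for 3, namely IK, DND1 and PCDH1, beside 5861 of the 19694 genes tested. DESeq2's Wald test called 1, and over all 21301 genes it called 2058 lower and 1586 higher. The median of the 16 neighbours was 0.11, and 14 of 16 were above 0. TAF7, a subunit of TFIID whose gene lies between the beta and gamma clusters, was at 129, 122 and 142 CPM in siControl and 160, 149 and 108 CPM in siPSF, which overlapped (log2 fold change 0.09, 95% interval -0.18 to 0.37). SLC25A2, a carrier gene in the same gap, was at 0.0641 CPM in siControl and was not tested.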

How the data were processed

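SH-SY5Y libraries (3 siControl, 3 siPSF) were analysed. The authors deposited 1 table with raw read counts per gene and library, and FPKM values, called RPKM in the methods. The methods name TopHat and RefSeq genes of hg38, whereas the submitters' processing notes name Trimmomatic, HISAT2 2.1.0, StringTie 2.1.3b and GRCh38; which of them made the counts, and whether strand was used, is not given in the sources used here. No per-sample column was left unused.

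Counts were filtered with filterByExpr, scaled by TMM and tested with edgeR 4.0.16's quasi-likelihood test (R 4.3.3), with Benjamini-Hochberg adjustment over 19694 genes. The script was tested on simulated data. Replicate libraries differed beyond sampling noise (chi-square per degree of freedom of 20.8 or more). The total counts per library, 101540520 to 132420931, set the precision of low members, and intervals come from the fit. DESeq2 1.42.0 and limma 3.58.1 on log2(FPKM + 0.5) or log2(FPKM + 0.1) were alternatives; limma after scaling FPKM to the same sum, and alpha without PCDHACT, were chosen after seeing the data. Python 3.11.15, pandas 2.3.3 and numpy 2.4.6 made the tables.

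Members and lists were chosen with earlier results of these data known. Named were, in alpha, beta, gamma A, gamma B and C-type genes, those called, the 2 highest in FPKM, the first and the last; of the listed regulators and neighbours, those called with CTCF, RAD21, TAF7 and SLC25A2. Any other gene was named after its values were seen. Positions and promoters are from RefSeq GRCh38.p14, and exons from GENCODE.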

Additional observations from a re-analysis of the deposited data

How the results depend on the processing

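Without siControl replicate 3, 4 of the 8 lower members were called (PCDHGA6, PCDHGA10, PCDHGB6 and PCDHGB7). Leave-one-out fits called 4 to 10 lower, DESeq2's Wald test 16, and limma 8 (0.5 added), 7 (0.1 added) and 12 (scaled), where the last held 2 alpha and 3 beta members. The number called lower over all genes moved as well. It was 1628 in the main fit, 928 to 1735 over leave-one-out fits and 1022 without siControl replicate 3. DESeq2's Wald test called 2058 genes lower, and the same 3 limma fits called 1581, 1637 and 3182. PCDHGA6, PCDHGA10 and PCDHGB7 were called in all 14 settings, and PCDHGB6 was lost in the limma fits on FPKM (adjusted p 0.0522 to 0.0732). The number called higher was 0 to 1 over leave-one-out fits and 0 with limma after scaling, that is, setting FPKM to the same sum per library, which moved the median of all genes to -0.105. The gamma A and B genes were all below 0 in all settings, except PCDHGB1 without siPSF replicate 1 and without siPSF replicate 2.

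The gamma median was -0.723 to -0.544 over leave-one-out fits, and with limma it was -0.281 (0.5 added), -0.524 (0.1 added) and -0.317 (scaled). For the alpha median these were -0.399 to -0.0923, then -0.0696, -0.203 and -0.0963. For the beta median these were -0.158 to -0.0248, then -0.0889, -0.103 and -0.138. On FPKM the log2 ratio of the sums was -0.392 in alpha, -0.144 in gamma and -0.0803 in beta. On CPM these ratios were -0.251, -0.0661 and -0.0029. Regulators called numbered 1 to 5 over leave-one-out fits, 3, 4 and 12 in the same limma fits and 7 in DESeq2's Wald test, and neighbours 0 to 1, with 1 in DESeq2's Wald test.

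Uncalled members near 0 changed sign. Over leave-one-out fits PCDHA8 ran from -0.0524 to 0.127, PCDHA12 from -0.189 to 0.236, PCDHA13 from -0.233 to 0.456, PCDHB1 from -0.381 to 0.708, PCDHB15 from -0.003 to 0.0386, PCDHGB1 from -0.458 to 0.0433 and PCDHGC5 from -0.286 to 0.175. With limma (0.5 added, 0.1 added, scaled), PCDHA8 gave -0.0162, -0.0217 and -0.0847, PCDHA1 -0.0642, -0.121 and -0.116, PCDHA13 -0.0082, -0.0322 and -0.0169, and PCDHB15 -0.047, -0.0538 and -0.144. PCDHB10 gave -0.101 when scaled.

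A check by replicate number did not show pairing of the libraries, but with 3 libraries per group it cannot exclude pairing. Each group's mean was subtracted per gene, and the remainders of siControl and siPSF libraries were correlated. Same-numbered libraries gave -0.022, 0.056 and 0.056, and differently numbered ones -0.121 to 0.071. With a replicate block, 7 members were called lower and 1 higher, PCDHGB4 was lost (adjusted p = 0.053), 1 neighbour was called and PCDHGC5 was at 0.0167. Counts under about 100 per library, as in PCDHGA10 after knockdown, limit the precision of the low members. The causes of these changes were not tested.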
